A study of Mus musculus with 48 samples.

Results

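The genes described here are 8 mouse apoptosis genes chosen by name, caspases and genes of the mitochondrial pathway: the initiator caspases Casp2, Casp8 and Casp9, the apoptosome scaffold Apaf1, the BH3-only genes Bcl2l11 and Bbc3, and the effectors Bax and Bak1. They are 8 of the 20171 genes in the deposited count table, and all 8 had enough counts to be tested in every comparison below. RNA immunoprecipitation followed by sequencing (RIP-seq) measured them in mouse embryonic stem cells, both in whole lysates (inputs) and in the RNA recovered from lysates on HA-antibody beads (immunoprecipitates, IPs). The study asked which RNAs come down with Tnrc6a, a GW182 protein, and whether that changes without Ago2 or Upf1.

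All cells derive from the 129S6/SvEvTac line and carry the GFP_5xT71BS reporter and a stable FLAG-Cas9 transgene with a Blasticidin marker, controls included. Untagged cells have no further change, HA-Tnrc6a cells carry an HA-AVI tag on Tnrc6a, and the other genotypes are HA-AVI-Tnrc6a with Ago2-/- and HA-AVI-Tnrc6a with Upf1-/-. Each of the 4 genotypes was sampled as input and IP in 2 experiments, numbered 3 and 4, with 3 libraries per group, 16 groups and 48 libraries. Each triplicate is a set of dishes, and the beads received the same amount of protein from each lysate. The number of clones per genotype is not given, so a difference between genotypes may be one between clones, and p-values measure only the spread between these dishes.

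Apoptosis through mitochondria is decided by the Bcl2 family. BH3-only proteins such as Bim (Bcl2l11) and Puma (Bbc3) neutralise the survival members or activate Bax and Bak1, which open the outer mitochondrial membrane. Released cytochrome c then drives Apaf1 to assemble the apoptosome that activates caspase 9, whereas caspase 8 acts below death receptors and caspase 2 in the PIDDosome. MicroRNAs repress mRNAs through Argonaute proteins such as Ago2, which bind GW182 proteins such as Tnrc6a, and GW182 proteins recruit deadenylases. In embryonic stem cells Casp2 is a known target of the miR-290 to miR-295 cluster, and Bcl2l11 is a known target of the miR-17 to miR-92 cluster.

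Some mature microRNAs of those clusters, not all, are shown because Casp2 and Bcl2l11 are the genes on which the results turn. Capitals mark the seed, bases 2 to 8 from the 5′ end, and the sequences are from RefSeq (GRCm38.p6).
mmu-miR-294-3p: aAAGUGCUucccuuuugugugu
mmu-miR-295-3p: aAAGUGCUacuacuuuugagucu
mmu-miR-17-5p: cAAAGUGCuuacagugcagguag
mmu-miR-20a-5p: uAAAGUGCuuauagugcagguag
mmu-miR-92a-3p: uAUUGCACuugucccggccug
miR-294-3p and miR-295-3p share 1 seed, miR-17-5p and miR-20a-5p share another that is shifted by 1 base, and miR-92a-3p has its own. Matches to these seeds in the 3′ untranslated regions of the 8 mRNAs were not analysed here, and microRNA levels were not measured in these libraries.

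Total counts per library were 11471544 to 19595405 in experiment 3 and 25724085 to 73845953 in experiment 4. All 8 embryonic stem cell markers were high in the inputs (Pou5f1 1131 to 1888 CPM, counts scaled to library size), with summed levels of 5803 to 6909 CPM. Markers of other cell types were lower but not all absent: the 4 listed fibroblast genes summed to 21.6 to 48.5 CPM (Thy1 up to 33.5, Pdgfra up to 12.8 and Col1a2 up to 0.707 CPM), the 4 primitive endoderm genes to 4.52 to 42.0 CPM (Gata6 up to 18.6 and Gata4 up to 18.4 CPM), and the neural gene Sox1 reached 24.3 CPM. Ago2 mRNA was 129.9 ± 5.65 CPM (SD, n = 3) in Ago2 knockout inputs of experiment 4 against 316 ± 11.6 CPM in HA-Tnrc6a inputs, a fall over both experiments of 2.31-fold (adjusted p = 6.29e-34). Upf1 mRNA was 139 ± 3.47 CPM in inputs labelled Upf1 knockout of experiment 4 against 98.5 ± 1.58 CPM in HA-Tnrc6a inputs, and so was not lower. Over both experiments it was 1.49-fold higher in the inputs so labelled (edgeR quasi-likelihood test, adjusted p = 1.17e-22). Those libraries are called "labelled Upf1 knockout" throughout. Replicate 3 among HA-Tnrc6a inputs of experiment 3 (chi-square per degree of freedom over genes 28.9 and 34.3 against the others, which differed by 2.66), IP replicate 1 labelled Upf1 knockout of experiment 4 (26.3 and 36.2, against 4.69) and untagged IP replicate 1 of experiment 3 (29.9 and 19.2, against 17.1) stood farthest from their groups. Calls that end or appear without one of them are given with the results. In experiment 4, HA-Tnrc6a IP replicate 1 stood apart too (22.5 and 19.0, against 7.84), and held the most Casp2 and Bcl2l11 of its group. Tnrc6a mRNA itself rose to 26548 ± 7495 CPM in the HA-Tnrc6a IPs of experiment 3 from 69.0 ± 4.11 CPM in inputs.

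Compared per kilobase of gene length, which makes genes comparable, Bax was the most abundant of the 8 mRNAs in HA-Tnrc6a inputs, at 116 ± 0.516 CPM per kb in experiment 3 and 109 ± 3.95 in experiment 4 (SD, n = 3). Bak1 followed at 39.8 ± 0.254 and 50.5 ± 1.86 CPM per kb, and Bbc3 at 14.4 ± 0.333 and 8.23 ± 0.540. Casp9, Bcl2l11, Casp2 and Apaf1 lay together between 2.78 and 3.79 CPM per kb in both experiments, and their order changed between experiments. Casp8 was lowest, at 1.66 ± 0.211 and 1.51 ± 0.171 CPM per kb. In the HA-Tnrc6a IPs the order differed: Casp2 came first with 108 ± 15.0 CPM per kb in experiment 3 and 76.7 ± 11.9 in experiment 4, while Casp8 was again last. Casp2 and Bax, the first and second there, lay within 1 SD of each other in experiment 4 (66.7 ± 3.45 CPM per kb for Bax).

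**Figure D1:**
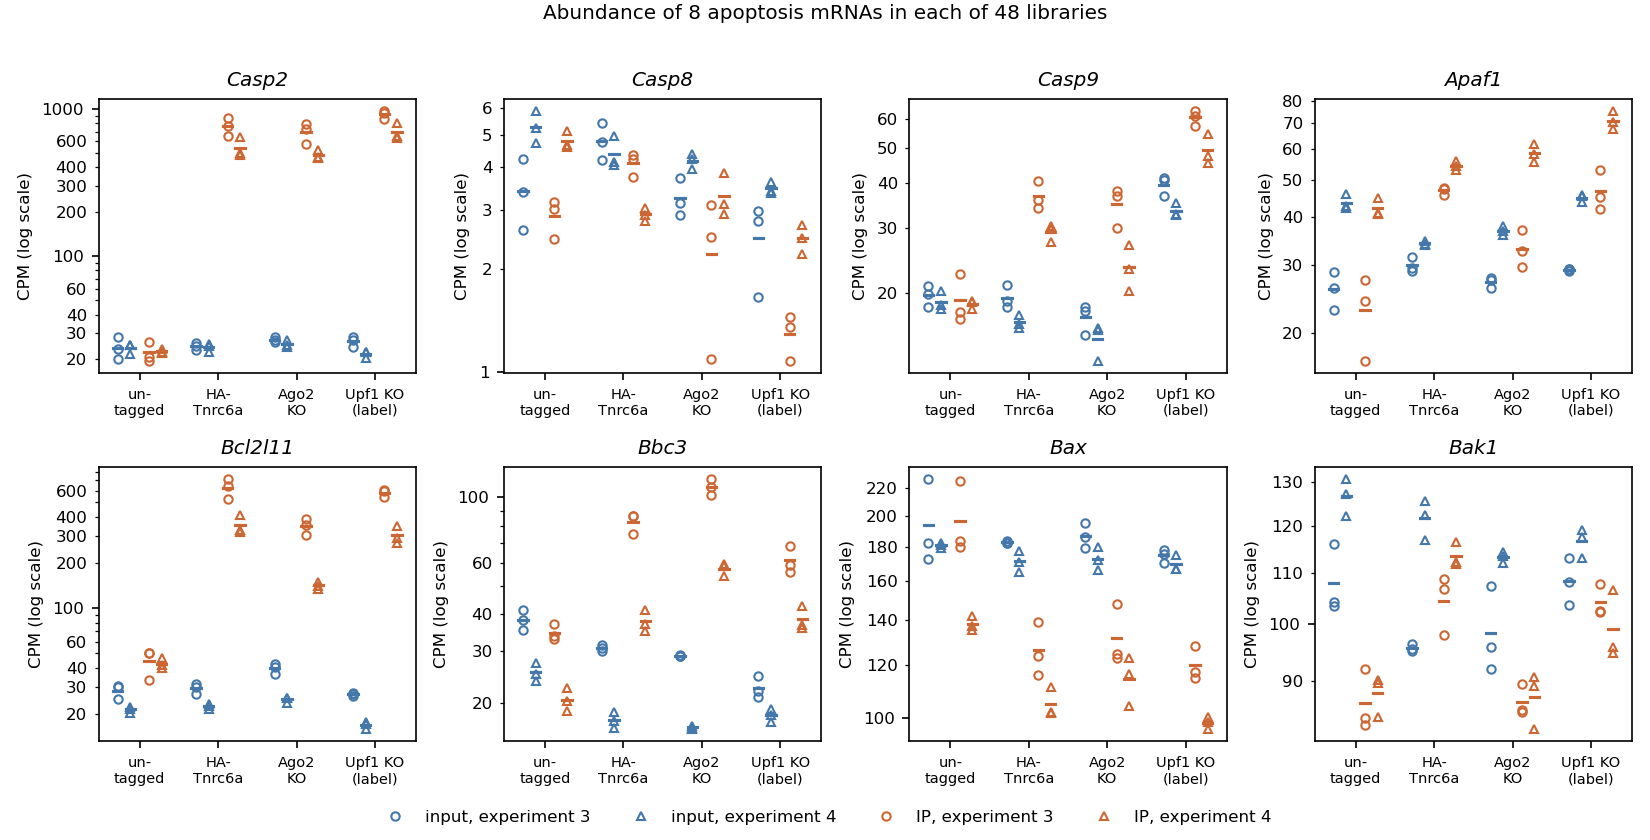
Abundance of each of the 8 mRNAs in CPM (logarithmic y axes, a range of its own per gene) in the 48 libraries, by genotype, with inputs in blue, IPs in orange, circles for experiment 3, triangles for experiment 4, and bars for the mean of 3 libraries. Casp2 and Bcl2l11 rise in the IPs of all tagged genotypes, Bcl2l11 least in Ago2 knockout IPs, and Casp9 is high in inputs labelled Upf1 knockout.

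Tnrc6a beads recovered 6 of the 8 mRNAs above the untagged background, with Casp2 and Bcl2l11 far ahead of the rest. Enrichment is the log2 ratio of IP to input in tagged cells less the same ratio in untagged cells, so that RNA binding beads without a tag is subtracted. In HA-Tnrc6a cells 6 mRNAs were higher, Bax was lower and Casp8 did not pass the test (edgeR quasi-likelihood test, Benjamini-Hochberg adjusted p under 0.05). This comparison called 62.0% of all tested genes, 29.8% of all tested genes as higher and 32.2% as lower, and 16.5% of all tested genes were at least 2-fold higher, as were Casp2, Bcl2l11 and Bbc3. The median of the 8 was 0.85 on the log2 scale and that of all tested genes was -0.10.

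Casp2 encodes caspase 2, an initiator caspase linked to DNA damage and centrosome checks (chr6:42264902-42282508, GRCm38.p6). Its input level was flat: the 3 HA-Tnrc6a inputs held 24.6, 25.9 and 23.2 CPM in experiment 3 and 22.3, 25.3 and 24.6 CPM in experiment 4. The 3 HA-Tnrc6a IPs held 866, 768 and 655 CPM in experiment 3 and 639, 497 and 489 CPM in experiment 4. Every tagged IP was far above every input and every untagged IP, whose values were 19.5 to 26.2 CPM in experiment 3 and 22.2 to 23.3 CPM in experiment 4. The IP-to-input ratio was 31.1 and 22.5 in HA-Tnrc6a cells and 0.930 and 0.950 in untagged cells, in experiments 3 and 4. The enrichment was 4.83 ± 0.13 (log2 ± SE, 28.3-fold, adjusted p = 1.13e-22), with 5.05 ± 0.18 in experiment 3 and 4.60 ± 0.17 in experiment 4, and it ranked 43 of 19993 genes.

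Bcl2l11 encodes Bim, a BH3-only activator of Bax and Bak1 (chr2:128126038-128162547). The HA-Tnrc6a inputs held 31.4, 29.9 and 27.0 CPM in experiment 3 and 21.4, 23.2 and 22.3 CPM in experiment 4. In the HA-Tnrc6a IPs it was at 710.2, 647 and 527 CPM in experiment 3 and at 416, 328 and 319.6 CPM in experiment 4. Untagged IPs were between 33.5 and 50.5 CPM in experiment 3 and between 39.8 and 46.9 CPM in experiment 4, so that the beads took up some Bcl2l11 RNA without a tag: the untagged IP-to-input ratio was 1.57 and 2.01. Against that background the enrichment was 3.39 ± 0.13 (log2 ± SE, 10.5-fold, adjusted p = 1.47e-17), rank 312 of 19993. It was 3.76 ± 0.19 in experiment 3 and 3.02 ± 0.18 in experiment 4, a difference that did not pass the test (adjusted p = 0.235, 0.365% of all tested genes called).

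Bbc3, which encodes the BH3-only protein Puma (chr7:16308398-16318334), came next. Its HA-Tnrc6a IPs held 86.6, 86.2 and 74.8 CPM against inputs of 30.6, 29.9 and 31.4 CPM in experiment 3. In experiment 4 the IPs held 41.5, 37.0 and 35.2 CPM and the inputs 17.4, 16.4 and 18.7 CPM. IPs and inputs did not overlap in either experiment, although the inputs of experiment 4 were lower. The enrichment was 1.51 ± 0.09 (2.86-fold, adjusted p = 1.72e-16).

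The remaining members were recovered weakly or not at all. Casp9, the caspase of the apoptosome (chr4:141793612-141815978), was enriched by 0.92 ± 0.10 on the log2 scale (1.89-fold, adjusted p = 4.72e-10). Apaf1, its scaffold (chr10:90989311-91082743), was enriched by 0.78 ± 0.10 (1.72-fold, adjusted p = 2.29e-08), and Bak1 (chr17:27019812-27028627) by 0.45 ± 0.07 (1.36-fold, adjusted p = 3.34e-07). The IP-to-input ratio of Bak1 was 1.09 and 0.933 in HA-Tnrc6a cells and 0.801 and 0.695 in untagged cells, in experiments 3 and 4. Bax (chr7:45461695-45466903), the most abundant of the 8 in inputs, was lower than background by 1.34-fold (-0.42 ± 0.08, adjusted p = 3.76e-05). Casp8 (chr1:58795233-58847503) was at -0.21 ± 0.17, with a 95% interval of -0.55 to 0.14 (adjusted p = 0.306), and was called lower in experiment 4 alone (-0.48, adjusted p = 0.044). Casp8 held only 1.08 to 5.87 CPM in the 48 libraries, and its intervals are the widest of the 8.

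Overlapping annotated genes limit some of these values, because whether counting used the strand is not given in the sources used here. Casp9 overlaps Cela2a, Apaf1 overlaps Ikbip, Bcl2l11 overlaps Acoxl and Bak1 overlaps Ggnbp1, so that reads of each pair may have been shared. In HA-Tnrc6a inputs of experiments 3 and 4, Ggnbp1 held 41.0 and 40.9 CPM beside 95.7 and 122 CPM of Bak1. Ikbip held 14.1 and 14.5 CPM beside 30.0 and 34.2 CPM of Apaf1. Cela2a (2.15 and 1.10 CPM) and Acoxl (0.592 and 0.271 CPM) were lower. No overlap was found in that annotation for Casp2, Casp8, Bbc3 or Bax.

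The other tagged genotypes were compared with the same untagged libraries, so their enrichments are not independent of the first. In Ago2 knockout cells 6 members were again higher and Bax lower (64.7% of all tested genes were called, 31.5% higher and 33.2% lower, and 16.6% were at least 2-fold higher), with Casp2 at 4.57 ± 0.10, Bbc3 at 2.09 ± 0.08 and Bcl2l11 at 2.00 ± 0.10 on the log2 scale. Bcl2l11 was thus 4.01-fold enriched in that genotype (adjusted p = 1.78e-17) and Bbc3 4.27-fold (adjusted p = 3.82e-23). The Bak1 value there, 0.16 ± 0.07 (adjusted p = 0.0403), no longer passed with RLE size factors, with library totals (0.0071) or with DESeq2 (0.13, adjusted p = 0.0804). Nor did it pass in either experiment alone, in IPs without inputs (0.045) or without any 1 of 13 of its 24 libraries (0.10 to 0.19 over all such fits). In cells labelled Upf1 knockout 6 members were higher, 1 was lower and 1 did not pass (63.6% called, 31.8% higher and 31.8% lower, and 17.7% at least 2-fold higher), with Casp2 at 5.22 ± 0.10, Bcl2l11 at 3.55 ± 0.10 and Bbc3 at 1.56 ± 0.09. Bak1 was at 0.35 ± 0.07 in those cells, but did not pass with library totals (0.091, adjusted p = 0.209) or in experiment 3 alone (0.24, adjusted p = 0.0657). Casp8 was at -0.44 ± 0.20 there (adjusted p = 0.0608) and was called lower with RLE size factors (-0.49, adjusted p = 0.0349), DESeq2 (-0.49, adjusted p = 0.0331) and library totals (-0.70, adjusted p = 0.00321), and without any 1 of 6 libraries, untagged IP replicate 1 of experiment 3 among them (-0.52).

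**Figure D2:**
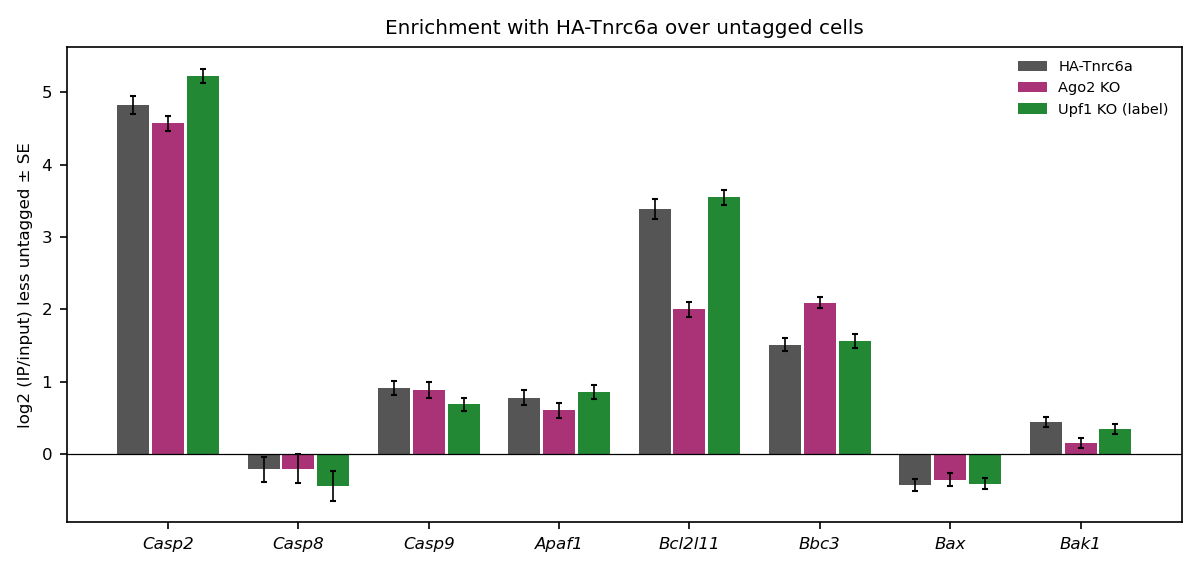
Enrichment of the 8 mRNAs with HA-Tnrc6a over untagged cells (y axis, log2 IP-to-input ratio less that of untagged cells, bars with SE, averaged over both experiments) in HA-Tnrc6a, Ago2 knockout and labelled Upf1 knockout cells. Casp2 stands between 4.57 and 5.22 in all 3 genotypes, whereas Bcl2l11 is at 2.00 in Ago2 knockout cells and at 3.39 and 3.55 in the other 2.

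Without Ago2, Tnrc6a recovered less Bcl2l11 RNA and more Bbc3 RNA, while Casp2 RNA did not pass the test. Recovery here is the log2 IP-to-input ratio of the knockout less that of HA-Tnrc6a cells, which removes changes of the input. Bcl2l11 and Bak1 fell, Bbc3 rose, and the other 5 members did not pass the test, in a comparison that called 21.3% of all tested genes (9.09% higher, 12.3% lower). The median of the 8 was -0.11 and that of all tested genes -0.04.

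The 3 Ago2 knockout IPs held 387, 305 and 356 CPM of Bcl2l11 in experiment 3 and 139.9, 134 and 149 CPM in experiment 4. All were below all HA-Tnrc6a IPs of the same experiment, although the Ago2 knockout inputs were higher, at 40.7, 42.6 and 36.5 CPM in experiment 3 and 23.6, 25.5 and 25.4 CPM in experiment 4. The IP-to-input ratio was 8.75 and 5.68 in Ago2 knockout cells, against 21.3 and 15.9 in HA-Tnrc6a cells and 1.57 and 2.01 in untagged cells. The change in recovery was -1.39 ± 0.10 (2.62-fold lower, adjusted p = 7.6e-12), with -1.29 ± 0.14 in experiment 3 and -1.49 ± 0.14 in experiment 4. Without any 1 of the 24 libraries it was -1.44 to -1.32. It was the 126th lowest of 19995 tested genes.

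For Casp2 the Ago2 knockout IPs held 784, 581 and 726 CPM in experiment 3 and 470.5, 462 and 523 CPM in experiment 4. These ranges overlap those of the HA-Tnrc6a IPs in both experiments. The IP-to-input ratio was 25.7 and 19.1 in Ago2 knockout cells against 31.1 and 22.5 in HA-Tnrc6a cells. The change in recovery was -0.26 ± 0.11 (1.20-fold lower, adjusted p = 0.0783), and its 95% interval was -0.47 to -0.04. It passed with library totals in place of TMM (-0.24, adjusted p = 0.0463) and without HA-Tnrc6a IP replicate 3 (-0.31) or Ago2 knockout IP replicate 1 (-0.31) of experiment 3.

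Because Bcl2l11 and Casp2 had similar input levels, their counts were also set against each other within each library, where library scaling cancels. This ratio was chosen after the values above were seen in the same libraries, and Casp9 and Apaf1 had similar input levels per kb too. Its p-values are therefore no separate support for the change in recovery. The adjustment over 4 comparisons does not cover that choice. In IPs the mean log2 ratio of Bcl2l11 to Casp2 counts was -0.28 ± 0.03 (SD, n = 3) in HA-Tnrc6a and -0.99 ± 0.05 in Ago2 knockout cells in experiment 3, and -0.61 ± 0.0097 and -1.78 ± 0.03 in experiment 4. The difference was -0.94 over both experiments (two-sided exact permutation test over 400 labelings that keep the experiments apart, p = 0.005, the smallest that this design can give, adjusted over 4 comparisons 0.00667). In inputs the ratio moved the other way by 0.19 (exact permutation p = 0.035, adjusted 0.035). In IPs labelled Upf1 knockout it was lower by 0.49 and in their inputs by 0.25 (each exact permutation p = 0.005, adjusted 0.00667).

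**Figure D3:**
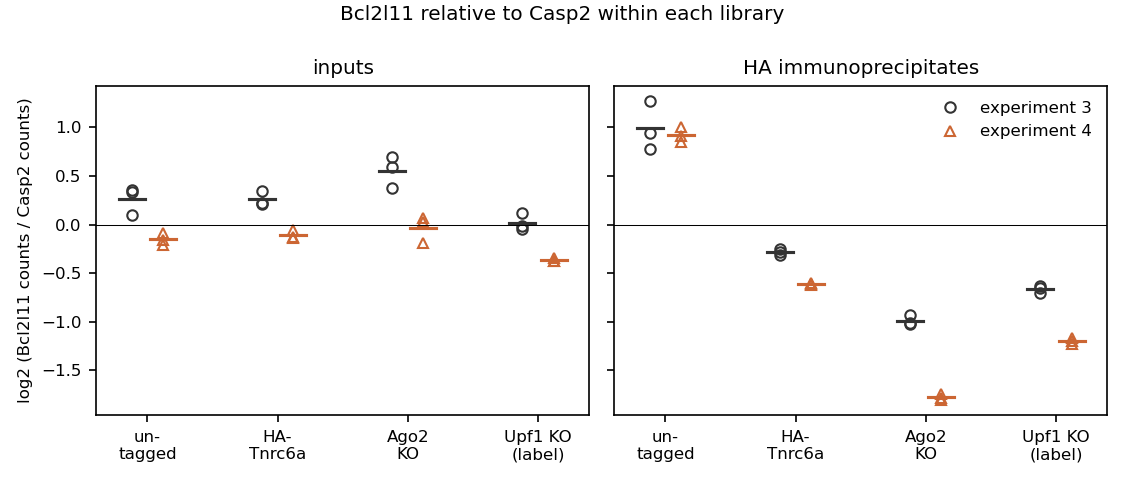
Log2 ratio of Bcl2l11 to Casp2 counts (y axis) in each input (left) and IP (right) by genotype, with circles for experiment 3, triangles for experiment 4 and bars for the mean of 3 libraries. Ago2 knockout IPs lie lowest in both experiments, with means of -0.99 and -1.78, and untagged IPs lie highest, with means of 1.00 and 0.92.

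Bbc3 went the opposite way in Ago2 knockout cells. Its IPs held 108, 102 and 115 CPM in experiment 3 and 58.2, 54.1 and 59.1 CPM in experiment 4, all above the HA-Tnrc6a IPs. The inputs were close, at 28.8, 29.1 and 28.9 CPM and at 16.7, 16.4 and 16.3 CPM. Recovery rose by 0.57 ± 0.07 (1.49-fold, adjusted p = 1.68e-07), with 0.48 ± 0.10 and 0.67 ± 0.10 in experiments 3 and 4, and by 0.54 to 0.61 without any 1 library.

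Bak1 IPs ranged from 85.1 to 89.6 CPM in Ago2 knockout against 98.0 to 109 CPM in HA-Tnrc6a cells in experiment 3, and from 82.4 to 90.7 against 112 to 116 CPM in experiment 4. Recovery fell by 0.29 on the log2 scale (SE 0.06, adjusted p = 0.000543), and in experiment 3 alone the value was -0.33 (adjusted p = 0.0569). Mean IP levels of the overlapping Ggnbp1 were lower in Ago2 knockout than in HA-Tnrc6a cells too. They were 30.7 against 35.6 CPM in experiment 3 and 26.8 against 36.7 CPM in experiment 4. Whether shared reads had a part in the Bak1 value was not tested. Apaf1 was at -0.18 ± 0.07 (adjusted p = 0.06), with -0.36 ± 0.10 in experiment 3 and -0.0071 ± 0.093 in experiment 4, and passed with RLE size factors (-0.19, adjusted p = 0.0411) with DESeq2 (-0.19, adjusted p = 0.0222) and without Ago2 knockout IP replicate 3 of experiment 3 (-0.23, adjusted p = 0.0149). The 95% interval was -0.24 to 0.17 for Casp9 and -0.08 to 0.21 for Bax. For Casp8 it was -0.38 to 0.40. For none of the 8 members did the difference between the experiments pass the test (adjusted p 0.521 to 0.984, background 0.195% called).

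In cells labelled Upf1 knockout, Casp2 alone of the 8 passed the test of recovery against HA-Tnrc6a cells, and its call is fragile. The comparison called 4.49% of all tested genes (2.92% higher and 1.57% lower) and shares the HA-Tnrc6a libraries with the one above. Casp2 IPs held 942, 855 and 965 CPM in experiment 3 and 797, 657 and 629 CPM in experiment 4, overlapping the HA-Tnrc6a IPs. Recovery was 0.39 ± 0.10 higher (1.31-fold, adjusted p = 0.0149), with 0.24 ± 0.14 and 0.53 ± 0.14 in experiments 3 and 4. The call was lost in experiment 3 alone (0.16, adjusted p = 0.725) and without any 1 of 9 libraries. In experiment 3 these were the HA-Tnrc6a inputs 1, 2 and 3 (0.36, 0.34 and 0.35), HA-Tnrc6a IP 2 (0.33) and labelled Upf1 knockout IP 3 (0.34). In experiment 4 they were the HA-Tnrc6a inputs 2 and 3 (0.31 and 0.32), HA-Tnrc6a IP 2 (0.30) and labelled Upf1 knockout IP 1 (0.28).

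Bcl2l11 recovery in those cells was 0.15 ± 0.09, with a 95% interval of -0.04 to 0.35 (adjusted p = 0.448). Its IPs held 609, 542 and 592 CPM in experiment 3 and 347, 292 and 268 CPM in experiment 4, and overlapped the HA-Tnrc6a IPs. Casp9 was at -0.24 ± 0.08 (adjusted p = 0.0701) and passed with library totals (-0.33), with no count filter (-0.27), with DESeq2 (-0.25, adjusted p = 0.0412) and without any 1 of 8 libraries, IP replicate 1 labelled Upf1 knockout of experiment 4 among them (-0.33, in a range of -0.33 to -0.22 over all such fits). The 95% intervals were -0.13 to 0.20 for Bbc3, -0.12 to 0.14 for Bax, -0.07 to 0.20 for Apaf1, -0.23 to 0.01 for Bak1 and -0.62 to 0.13 for Casp8.

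The 2 knockouts were also set against each other directly, which tests whether their recoveries differ. Bcl2l11 was 2.87-fold lower in Ago2 knockout than in labelled Upf1 knockout cells (-1.52 ± 0.08, adjusted p = 1.29e-17), and Casp2 was 1.54-fold lower (-0.63 ± 0.09, adjusted p = 3.57e-07). Bbc3 was 1.47-fold higher (0.56 ± 0.07, adjusted p = 2.08e-07). The comparison called 24.4% of all tested genes, 10.9% as higher and 13.5% as lower. Apaf1 (-0.23 ± 0.07, adjusted p = 0.0207) and Bak1 (-0.17 ± 0.06, adjusted p = 0.0391) also passed, but did not with library totals (-0.14 and -0.084), with no count filter (-0.19 and -0.13), in either experiment alone, or without any 1 of 10 and of 17 libraries (-0.24 to -0.14 and -0.18 to -0.098 over all such fits). Without IP replicate 1 labelled Upf1 knockout of experiment 4 they were at -0.17 and -0.10. Casp8 and Bax did not pass. Casp9 did not either (0.22 ± 0.09, adjusted p = 0.0833), but was called higher with library totals (0.30, adjusted p = 0.0117), with no count filter (0.26, adjusted p = 0.049), in experiment 3 alone (0.43, adjusted p = 0.0261) and without any 1 of 7 libraries, the same IP among them (0.30).

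**Figure D4:**
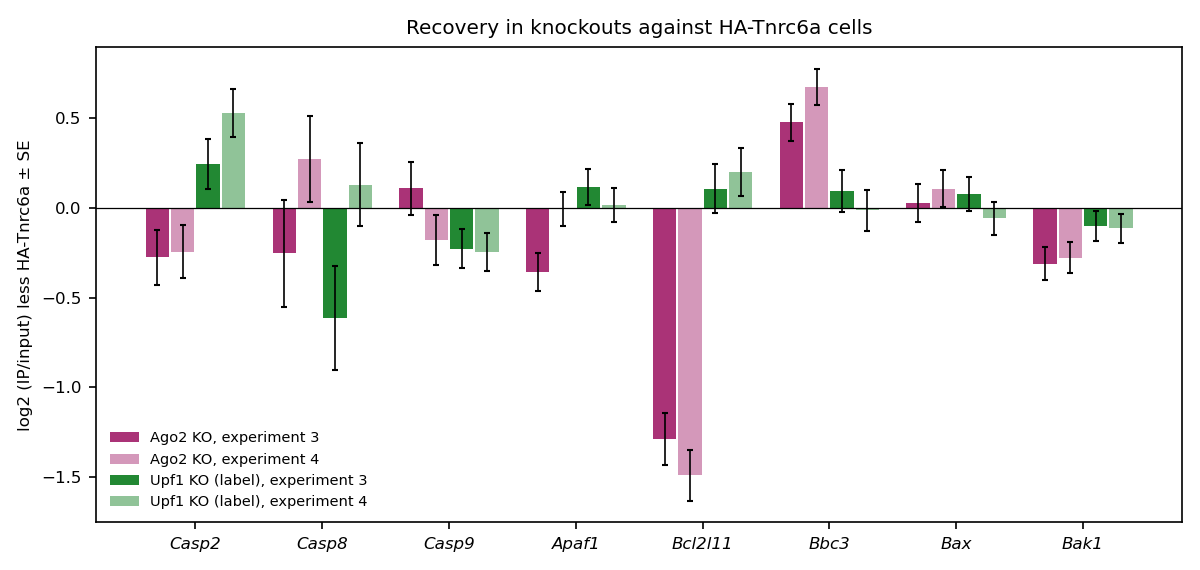
Change in recovery of the 8 mRNAs (y axis, log2 IP-to-input ratio of the knockout less that of HA-Tnrc6a cells, bars with SE) in Ago2 knockout and labelled Upf1 knockout cells, dark for experiment 3 and pale for experiment 4. The Bcl2l11 bars of Ago2 knockout cells, -1.29 and -1.49, are the longest, and the Bbc3 bars of that genotype, 0.48 and 0.67, point up.

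In the lysates themselves, Casp9 RNA was about 2-fold higher in cells labelled Upf1 knockout and Bcl2l11 RNA was slightly higher in Ago2 knockout cells. Input differences cover steady-state RNA, and in such bulk samples a change in the number of expressing cells and one in RNA per cell cannot be told apart. The summed level of 4 primitive endoderm markers moved with genotype too: in experiment 4 it was 4.69 to 4.94 CPM in Ago2 knockout, 19.4 to 20.6 in HA-Tnrc6a and 36.1 to 42.0 in labelled Upf1 knockout inputs. In experiment 3 it was 4.52 to 5.12, 13.9 to 15.9 and 7.33 to 9.28 CPM in the same order, and in untagged inputs it was 6.88 to 10.8 CPM in experiment 3 and 22.1 to 23.5 CPM in experiment 4. Foxa2, one of the 4, was at 0 in some inputs. The summed fibroblast markers (4 of 5 in the table) moved likewise in experiment 4, at 21.6 to 24.0 CPM in Ago2 knockout, 33.5 to 36.2 in HA-Tnrc6a, 32.7 to 35.3 in untagged and 46.2 to 48.5 in labelled Upf1 knockout inputs. In experiment 3 they were at 25.0 to 30.9, 36.5 to 39.1, 28.2 to 33.6 and 28.7 to 33.5 CPM in that order. The part of either set in the input differences was not tested.

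The inputs labelled Upf1 knockout held 40.7, 36.7 and 41.1 CPM of Casp9 in experiment 3 and 35.2, 32.6 and 32.8 CPM in experiment 4. HA-Tnrc6a inputs held 18.2, 21.0 and 18.9 CPM in experiment 3 and 16.6 ± 0.673 CPM (SD, n = 3) in experiment 4, without overlap. The difference was 1.03 ± 0.05 (log2 ± SE, 2.04-fold, adjusted p = 1.63e-23), with 1.02 ± 0.07 and 1.03 ± 0.06 in experiments 3 and 4. Cela2a, which overlaps Casp9, did not exceed 2.46 CPM in any input library. The IPs labelled Upf1 knockout held more Casp9 RNA as well, 57.4 to 63.0 CPM against 34.1 to 40.4 CPM in experiment 3 and 45.3 to 54.6 against 27.6 to 30.4 CPM in experiment 4. Recovery, which divides by input, did not rise with it.

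This comparison called 58.6% of all tested genes (29.5% higher and 29.0% lower), and 5 of the 8 members were among them, 2 higher and 3 lower. Casp8 fell by 0.65 on the log2 scale (SE 0.12, adjusted p = 8.83e-06), from 4.79 ± 0.609 to 2.47 ± 0.711 CPM in experiment 3 and from 4.38 ± 0.495 to 3.47 ± 0.139 CPM in experiment 4 (SD, n = 3), and in experiment 4 alone it did not pass (-0.33, adjusted p = 0.0504). Bcl2l11 fell by 0.27 (SE 0.05, adjusted p = 8.46e-06), by 0.14 in experiment 3, where it did not pass alone (adjusted p = 0.1), and by 0.39 in experiment 4. Casp2 was at -0.02 ± 0.05 and Bax at -0.04 ± 0.02, and neither passed.

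Apaf1, Bbc3 and Bak1 changed differently in the 2 experiments. Apaf1 inputs labelled Upf1 knockout held 29.2 ± 0.220 against 30.0 ± 1.40 CPM in HA-Tnrc6a cells in experiment 3, and 44.9 ± 1.05 against 34.2 ± 0.386 CPM in experiment 4. Bbc3 inputs labelled Upf1 knockout were lower than HA-Tnrc6a inputs in experiment 3 (20.9 to 24.6 against 29.9 to 31.4 CPM) and overlapped them in experiment 4 (17.2 to 19.1 against 16.4 to 18.7 CPM). Bak1 was higher by 0.17 ± 0.04 in experiment 3 and at -0.05 ± 0.04 in experiment 4. The averages, 0.18 for Apaf1 (adjusted p = 0.000131), -0.19 for Bbc3 (adjusted p = 0.00141) and 0.06 for Bak1 (adjusted p = 0.056), therefore describe neither experiment. The difference between experiments passed the test for these 3 of the 8 (11.6% of all tested genes did).

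In Ago2 knockout inputs Bcl2l11 rose by 0.30 ± 0.05 (1.23-fold, adjusted p = 3e-06), by 0.44 ± 0.07 in experiment 3 and 0.15 ± 0.07 in experiment 4, and 30.9% of all tested genes were called (15.7% higher and 15.2% lower). All Ago2 knockout inputs of either experiment were above the HA-Tnrc6a inputs of that experiment. Casp2 inputs were at 0.11 ± 0.05 (95% interval 0.01 to 0.21, adjusted p = 0.0836). Casp8 fell by 0.32 (SE 0.11, adjusted p = 0.024), but not in experiment 4 alone (-0.07) or without HA-Tnrc6a replicate 3 (-0.26) or Ago2 knockout replicate 1 (-0.28) of experiment 3, or replicate 3 of either genotype in experiment 4 (-0.27 and -0.30). Casp9 was at -0.16 ± 0.06 (adjusted p = 0.0441) and no longer passed with DESeq2 (adjusted p = 0.0639), in either experiment alone, or without any 1 of 6 of the 12 libraries (-0.19 to -0.12 over all such fits). Apaf1, Bbc3, Bax and Bak1 did not pass, and for no member did the difference between experiments pass the test (5.94% of all tested genes passed).

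**Figure D5:**
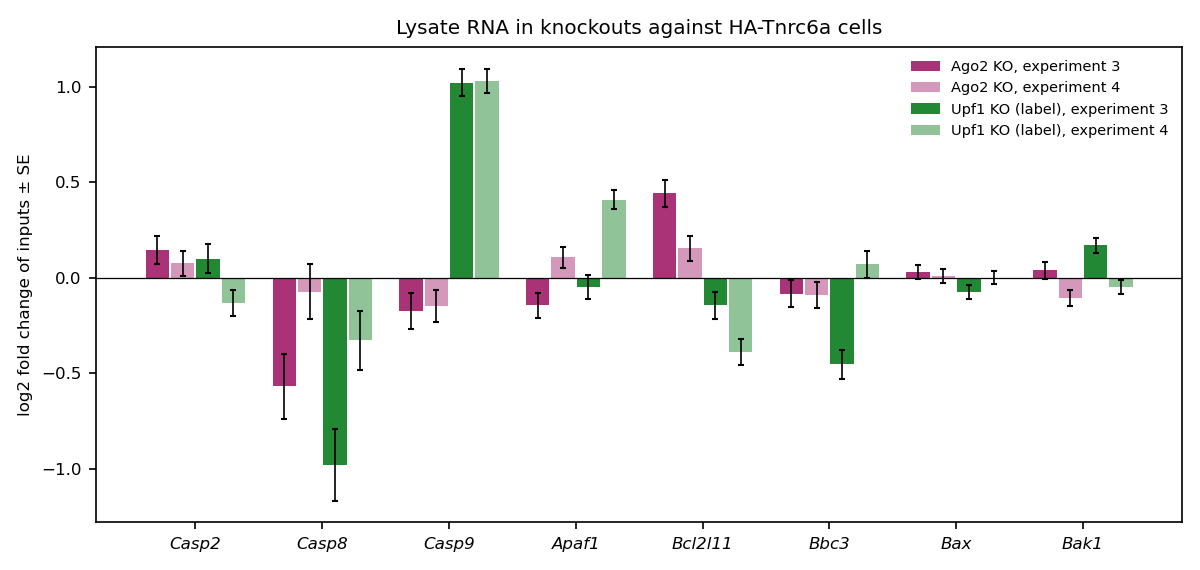
Change of the 8 mRNAs in inputs (y axis, log2 fold change against HA-Tnrc6a inputs, bars with SE) in Ago2 knockout and labelled Upf1 knockout cells, dark for experiment 3 and pale for experiment 4. Casp9 stands at 1.02 and 1.03 in cells labelled Upf1 knockout, while Apaf1, Bbc3 and Bak1 of that genotype differ between experiments. Their bars are small beside the SE for Apaf1 in experiment 3 (-0.05 ± 0.06) and for Bbc3 (0.07 ± 0.07) and Bak1 (-0.05 ± 0.04) in experiment 4.

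Between the 2 knockouts, Ago2 knockout inputs held 2.27-fold less Casp9 (-1.18 ± 0.05, adjusted p = 2.73e-25) and 1.48-fold more Bcl2l11 (0.57 ± 0.05, adjusted p = 8.28e-15) than inputs labelled Upf1 knockout, with 62.3% of all tested genes called (31.4% higher and 30.9% lower). Apaf1 was lower by 0.19 (SE 0.04, adjusted p = 6.83e-05), and in experiment 3 alone did not pass (-0.10, adjusted p = 0.262). Bbc3 did not pass (0.11 ± 0.05, edgeR, adjusted p = 0.0633). It was at 0.38 ± 0.08 in experiment 3 and at -0.16 ± 0.07 in experiment 4, a difference that was not tested. Bbc3 was called higher in experiment 3 alone (0.36, adjusted p = 0.000231), with RLE size factors (0.12, adjusted p = 0.0445) and without any 1 of 2 libraries. Casp2 (0.13), Casp8 (0.34), Bax (0.06) and Bak1 (-0.09) passed by small margins (adjusted p 0.0114 to 0.0497) but not in both experiments taken alone, and the first 3 did not pass with library totals (0.073, 0.28 and 0.0040). Casp2 also did not pass without Ago2 knockout replicate 3 (0.12) or labelled Upf1 knockout replicate 1 (0.094) of experiment 3, or Ago2 knockout replicate 1 (0.11) or labelled Upf1 knockout replicate 2 (0.11) of experiment 4. Casp8 did not pass without Ago2 knockout replicate 2 (0.28) or labelled Upf1 knockout replicate 1 (0.22) of experiment 3, Bak1 without Ago2 knockout replicate 2 of experiment 3 (-0.071), and Bax without any 1 of 9 of the 12 libraries (0.043 to 0.074 over all such fits).

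Untagged and HA-Tnrc6a inputs, which differ by the tag on Tnrc6a, were also compared. Bbc3 was 1.35-fold higher in untagged cells (0.43 ± 0.05, adjusted p = 1.41e-06), at 35.4 to 41.4 against 29.9 to 31.4 CPM in experiment 3 and 23.8 to 27.4 against 16.4 to 18.7 CPM in experiment 4, without overlap. This comparison called 15.4% of all tested genes (7.67% higher and 7.74% lower). Bak1 was at 0.11 ± 0.04 (adjusted p = 0.0273) and no longer passed in either experiment alone, with library totals or without any 1 of 6 of the 12 libraries (0.089 to 0.13 over all such fits). The other 6 members did not pass. Apaf1 was at -0.21 ± 0.08 in experiment 3 and at 0.35 ± 0.07 in experiment 4, a difference that was not tested.

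Among all genes with a mean log2 CPM of at least 3, those most like each member over the 16 group means were found by Pearson's r on log2 CPM, as a description only, since all points share libraries and most of the variation is between tagged IPs and the rest. For Casp2 these were Tfb2m, Retreg2 and Gnb5 (r = 0.998 each). For Bcl2l11 they were Cnep1r1 (0.991), Tmed2 (0.990) and Atf2 (0.990). The closest gene was Gm1043 for Bbc3 (0.979), Sgsm1 for Casp9 (0.984), Bex1 for Bax (0.984), Rere for Apaf1 (0.962), Piwil2 for Casp8 (0.923) and Ergic1 for Bak1 (0.880). Within the 8, Casp2 and Bcl2l11 were most alike (r = 0.967), and Casp2 and Bax most opposed (r = -0.892).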

How the data were processed

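Raw counts per gene and library were deposited by the authors as 1 table of 20171 genes, and its lowest maximum count of 11 shows that genes with fewer counts are not listed. The submitters' processing notes name STAR 2.7.3a, bcl2fastq 2.20 and the builds GRCm38 and mm10. The annotation and strand setting are not given in the sources used here. A further 48 columns headed rpkm were not used. The gene length column, deposited by the authors under a header naming another tool and given in bases, set CPM per kb. Table columns numbered 1 to 3 were taken as experiment 3 and 4 to 6 as experiment 4, a mapping inferred from the numbering of the columns and not stated in the table. Whether same-numbered libraries share a dish is not given.

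The tests used edgeR 4.0.16 under R 4.3.3 with limma 3.58.1: TMM scaling, filterByExpr with a minimum count of 10, robust quasi-likelihood F-tests (two-sided), contrasts averaged over the 2 experiments from the groups of each comparison, and Benjamini-Hochberg adjustment over all tested genes at 0.05. The SE is the log2 change divided by the square root of F. CPM use TMM over all 48 libraries, and log2 CPM a prior count of 2. Totals of 11471544 to 73845953 set the counting error, and counts are reads rather than molecules. Named list genes are up to 3 per direction with the largest change among those that passed, moved alike in experiments 3 and 4 and had a mean log2 CPM of at least 3. Of the genes this rule names, 1 is not reported here. The members, lists and rules were chosen with earlier results of these data known. Alternatives were RLE size factors, library totals, no count filter, DESeq2 1.42.0, each library left out, a replicate block, each experiment alone and IPs without inputs. The fits were tested on simulated data.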

Additional observations from a re-analysis of the deposited data

Results flagged for a closer look

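Some input changes differed between experiments 3 and 4 by a test of the difference itself (edgeR interaction of experiment and genotype). In cells labelled Upf1 knockout against HA-Tnrc6a cells, the change of Apaf1 was 0.46 higher in experiment 4 (-0.05 in experiment 3 and 0.41 in experiment 4 on the log2 scale, adjusted p = 3.8e-05), and that of Bbc3 was 0.52 higher (-0.45 and 0.07, adjusted p = 0.000288). The change of Bak1 was lower in experiment 4 by -0.22 (0.17 and -0.05, adjusted p = 0.00599). In Ago2 knockout cells the fall of Pmaip1 differed by -0.71 (-0.27 and -0.98, adjusted p = 1.21e-10). Of all tested genes 11.6% differed in this way in the first comparison and 5.94% in the second.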

How the results depend on the processing

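Of the comparisons of members under settings other than leaving out a library, 526 kept direction and side of the threshold, 38 lost the call, 26 gained it and 33 changed sign. Counts of called genes kept within 1.5 times in 83 cases and moved in 15. Genes whose enrichment in HA-Tnrc6a cells differed between experiments numbered 73, against 482 with library totals, 399 with DESeq2, 396 with a replicate block, 1089 in IPs without inputs and 20 to 337 without 1 library. Those whose Ago2 knockout recovery differed numbered 39, against 104 with DESeq2, 624 without inputs and 24 to 71 without 1 library. Experiment 3 alone called 1623 genes in Ago2 knockout recovery (4268 in the whole data), 162 in labelled Upf1 knockout recovery (896), 2667 between the knockouts' recoveries (4878), 3382 in Ago2 knockout inputs (6065) and 652 in untagged inputs (2990), and experiment 4 alone called 384 in labelled Upf1 knockout recovery. IPs without inputs called 7482, 8805 and 10794 in those 3 recoveries. Input changes then count as recovery and the spread of the inputs drops out, and the part of either in these counts was not tested. Labelled Upf1 knockout recovery gave 590 to 957 genes without 1 library, with 590 and 594 without HA-Tnrc6a inputs 2 and 3 of experiment 3 and 596 and 592 without those of experiment 4.

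Scaling moved the share of higher calls: in labelled Upf1 knockout recovery it was 65.1% with TMM, 52.8% with RLE, 47.5% with no count filter and 22.4% with library totals. With TMM and with totals it was 44.6% and 63.4% between the knockouts' recoveries, 50.0% and 36.4% in labelled Upf1 knockout enrichment, 56.2% and 5.39% for experiment differences in enrichment (28.9% with RLE), and 49.6% and 33.6% for those in inputs labelled Upf1 knockout. Totals moved the median of all genes from -0.10 to -0.25, -0.07 to -0.22 and -0.06 to -0.32 in the HA-Tnrc6a, Ago2 knockout and labelled Upf1 knockout enrichments.

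Values that changed sign follow. Among those without inputs, Casp9 and Bbc3 in labelled Upf1 knockout recovery and Casp9 and Bid between the knockouts passed the test with the other sign, since input changes then count as recovery. For the rest the cause was not tested. In HA-Tnrc6a enrichment Casp8 was 0.099 in experiment 3 alone. In Ago2 knockout recovery Casp8 was -0.0049 with RLE, -0.0044 with DESeq2, -0.018 with the block, -0.28 in experiment 3 and -0.28 without inputs, Casp9 0.085 in experiment 3, Apaf1 0.0042 in experiment 4 and Fadd 0.047 without inputs. In labelled Upf1 knockout recovery Casp8 was 0.16 in experiment 4, Apaf1 -0.025 with totals and Bbc3 -0.050 with totals, and without inputs Casp9 was 0.75, Bcl2l11 -0.15 and Bbc3 -0.19. Bax there was -0.0082 with RLE, -0.082 with totals, -0.021 without the filter, -0.0081 with DESeq2, -0.013 and -0.026 in experiments 3 and 4, and -0.069 without inputs. Between the knockouts' recoveries, without inputs, Casp9 was -0.95, Bid -0.37 and Fadd 0.024. In Ago2 knockout inputs Apaf1 was 0.11 in experiment 4 and Bak1 0.039 in experiment 3. In inputs labelled Upf1 knockout Casp2 was 0.026 with totals and 0.10 in experiment 3, Apaf1 -0.048 in experiment 3, Bbc3 0.069 and Bak1 -0.048 in experiment 4, and Bax 0.0043 with totals. Bbc3 between the knockouts' inputs was -0.16 in experiment 4, and in untagged inputs Casp8 was 0.26 in experiment 4 and Apaf1 -0.21 in experiment 3. Leaving out 1 library gave Casp8 -0.15 to 0.15 and Casp9 -0.076 to 0.022 in Ago2 knockout recovery, Apaf1 -0.019 to 0.082, Bbc3 -0.054 to 0.070 and Bax -0.067 to 0.034 in labelled Upf1 knockout recovery, and in inputs Apaf1 -0.029 to 0.0021 (Ago2 knockout), Casp2 -0.044 to 0.018 (labelled Upf1 knockout) and Casp2 -0.097 to 0.023 (untagged).

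Whether same-numbered libraries are paired was not settled. Deviations of IP and input correlated at a mean r of 0.104 over 24 pairs (-0.061 to 0.51), with 10 over 0.1. Those of inputs of different genotypes correlated at 0.0689 over 36 pairs (-0.073 to 0.21), with 13 over 0.1. The main fits treat same-numbered libraries as unpaired. With the replicate block Bak1 passed in inputs labelled Upf1 knockout (0.061, adjusted p = 0.0375) and Hrk no longer passed between the knockouts' recoveries (-0.43, adjusted p = 0.0638). Depth limits Casp8 most.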

Other observations

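The rest of the apoptosis pathway was followed with a list of 37 genes, of which Casp1, Casp4 and Casp12 were not analysed here and up to 34 were tested in a comparison. In HA-Tnrc6a cells 16 of 33 tested genes were enriched over untagged cells, 8 were lower and 9 did not pass, and 5 were at least 2-fold higher, with a median log2 enrichment of 0.11 against -0.10 over all tested genes (edgeR, 62.0% called). Fadd, the adaptor that brings caspase 8 to death receptors, was enriched by 2.98 ± 0.14 on the log2 scale, Mcl1, a survival member of the Bcl2 family, by 2.26 ± 0.08, and Ripk1, a kinase of the death receptor complex, by 1.82 ± 0.12. Cycs (cytochrome c, -0.82 ± 0.09), Birc5 (survivin, -0.77 ± 0.06) and Htra2, a protease released from mitochondria (-0.75 ± 0.10), were lower than background. By group, 5 of 6 other BH3-only genes were higher and 1 did not pass, 5 of 9 death receptor and adaptor genes were higher and 2 lower, and of 5 genes for proteins of the mitochondrial intermembrane space 2 were higher and 3 lower, beside 29.8% higher and 32.2% lower among all tested genes. Of 4 tested survival members of the Bcl2 family 2 were higher and 1 lower, and of 5 inhibitors of apoptosis 1 was higher and 1 lower. Of 3 executioner caspases 0 were higher and 1 was lower, and Bok, a group of its own, was higher.

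In Ago2 knockout cells the recovery of 5 of 34 tested genes rose and that of 3 fell (21.3% of all genes called). Pidd1, the scaffold of the PIDDosome that activates caspase 2, fell by 0.61 (SE 0.07, adjusted p = 8.02e-08), while its change in cells labelled Upf1 knockout was 0.55 ± 0.08 (adjusted p = 2.71e-05), the single call among 33 tested genes there (4.49% of all genes called), which did not pass in experiment 3 alone (0.35, adjusted p = 0.21). Between the knockouts Pidd1 differed by -1.14 ± 0.07 (adjusted p = 4.52e-15). Cflar, an inhibitor of caspase 8 activation, rose by 0.49 ± 0.10 in Ago2 knockout recovery (adjusted p = 0.000225), Birc2 by 0.31 ± 0.07 and Ripk1 by 0.31 ± 0.10. Fadd fell by 0.50 (SE 0.12) and Cycs by 0.25 (SE 0.09). Of these, Cflar did not pass in experiment 4 alone, Ripk1, Birc2 and Fadd not in experiment 3 alone, and Cycs in neither. For Fadd the IPs without inputs were at 0.047 (edgeR, adjusted p = 0.615), and the inputs were higher by 0.51 (SE 0.09). Ripk1 also did not pass without HA-Tnrc6a input replicate 3 (0.29) or Ago2 knockout input replicate 2 (0.26) of experiment 3, nor Cycs without any 1 of 14 of the 24 libraries (-0.32 to -0.20 over all such fits).

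In the inputs, 7 of 33 tested genes were higher and 10 lower in Ago2 knockout than in HA-Tnrc6a cells (30.9% of all genes called), led by Fadd (0.51 ± 0.09), Ripk1 (0.49 ± 0.07) and Aifm1 (0.27 ± 0.04) upward and Pmaip1, which encodes the BH3-only protein Noxa (-0.62 ± 0.03), Cflar (-0.31 ± 0.07) and Bid (-0.29 ± 0.04) downward. In cells labelled Upf1 knockout, 11 of 32 were higher and 9 lower (58.6% called). The BH3-only genes Hrk (1.13 ± 0.08), Bad (0.51 ± 0.08) and Bmf (0.50 ± 0.04) led upward, and Bok (-0.53 ± 0.05) and Cycs (-0.31 ± 0.04) were among those lower. In untagged inputs 4 of 32 were higher than in HA-Tnrc6a inputs and 28 did not pass (15.4% called), and Pmaip1 led with 0.31 ± 0.04 but did not pass in experiment 3 alone (0.20, adjusted p = 0.096).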
